A study of Mus musculus with 6 samples.

Results

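The tripartite motif (TRIM) genes were examined in CD11c+ cells of the mouse spleen, in Atg16L1 hypomorph and wild-type mice. Members were the genes whose symbol is Trim followed by a number and at most 1 letter, with Trim30a left out, and which had an Affymetrix MOE430A probe set naming no other gene. By this rule 38 of the 12393 genes with a probe set of their own were TRIM genes, carried by 62 probe sets, and a gene with several was read from the one that was brightest on average. The rule itself uses symbols and no measured difference, although it was written with earlier results of these data known.

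The compared groups were 3 arrays from Atg16L1 hypomorphic mice and 3 arrays from wild-type mice, all C57BL/6J, 8 weeks old and untreated. A hypomorphic allele keeps part of a gene's function, and ATG16L1 guides the attachment of LC3 and its relatives to autophagosome membranes. The labels describe neither the allele nor whether arrays stand for separate animals, so the p-values cover variation among these samples only, which may be technical. Cells were enriched with magnetic beads for CD11c, the integrin used to select dendritic cells, which some splenic macrophages also carry.

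TRIM proteins share a RING domain, B-boxes and a coiled coil, and most act as E3 ubiquitin ligases, the enzymes that choose which protein a ubiquitin-loaded E2 enzyme will modify. Their C-terminal domain differs between classes and binds the target. Many PRY-SPRY members act in antiviral sensing and several are induced by interferon, PHD-bromodomain members act on chromatin, and some TRIM proteins bind autophagy proteins, through which they can deliver their targets for degradation. In bulk samples such as these, a change in the number of cells of a type and a change in RNA per cell cannot be told apart.

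Atg16l1 itself was at 6.13, 5.84 and 6.11 in the hypomorph arrays, against 7.05, 7.11 and 7.04 in wild type, on the log2 scale of the deposited values. The groups did not overlap, and the gene was 2.05-fold lower in the hypomorph (log2 difference -1.04, SE 0.0971, adjusted p = 0.00163). Some other measures also separated the genotypes over the whole series. The 24 poly-A spike-in probe sets averaged 7.58 to 7.90 on the hypomorph arrays and 8.95 to 9.96 on the wild-type arrays. The 18 hybridization control probe sets averaged 10.29 to 10.40 on the hypomorph arrays and 11.08 to 11.65 on the wild-type arrays. The beta-actin 3′ minus 5′ difference, a sign of RNA quality, was 0.693 to 0.77 in the hypomorph and 0.94 to 1.02 in wild type. Of 19 macrophage marker genes, 18 rose and 0 fell (0 also at an unadjusted p under 0.05), and their mean log2 value was 10.43 to 10.54 in the hypomorph and 8.50 to 9.14 in wild type. Of 9 B cell genes 5 fell and 0 rose (0 also unadjusted), with array means of 7.75 to 8.25 in the hypomorph and 8.32 to 8.75 in wild type. Without 1 array, 1 to 7 of them fell. Markers of plasmacytoid dendritic cells, 8 in all, had 4 members higher and 1 lower, with array means of 9.11 to 9.15 in the hypomorph and 8.68 to 8.93 in wild type. The 14 conventional dendritic cell genes were split, with 3 higher and 3 lower. All TRIM differences below lie between arrays that also differ in these measures, whose part in them was not tested.

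TRIM genes moved in both directions and by small amounts. With limma and an adjusted p under 0.05 over all genes, 3 of 38 members rose in the hypomorph (Trim6, Trim25 and Trim26) and 4 fell (Trim7, Trim11, Trim34a and Trim39). That is 18.4% of the members, where 18.2% of all genes tested passed, 9.76% higher and 8.47% lower. The groups did not overlap for 15 members, or 39.5%, against 41.0% of all genes, with 6 higher (18.5% of all genes) and 9 lower (22.5% of all genes). The family therefore passed at about the rate of any gene. The median log2 difference was -0.11 over the members and -0.05 over all genes, and the median absolute difference was 0.208 over the members and 0.174 over all genes. Trim6 was the only member to change by at least 1.5-fold, a share below the 7.89% of all genes that did so and passed. Without wild-type replicate 1, 2 or 3 the members that passed numbered 2, 5 and 3, and without hypomorph replicate 1, 2 or 3 they numbered 2, 2 and 1. Of all genes, 16.8%, 18.3% and 14.5% passed without those wild-type arrays. Without those hypomorph arrays 7.67%, 6.73% and 5.99% did, so calls were lost over the whole series. With wild-type replicates 1 and 3, whose titles differ from the others, left out together, the median difference was -0.0015 over the members. Over all genes it was -0.0035 in that fit. The lone wild-type array is then assumed to vary like the hypomorph arrays. The 3 to 4 split became 2 higher and 5 lower after quantile normalization, and 4 higher and 3 lower with arrays centred on their medians. With the spike-in signal as a covariate limma called no member (2 had an unadjusted p under 0.05), as 0 of 12393 genes did, and the members' median SE was 0.305 in that fit in place of 0.103. The differences moved too, to -0.02 for Trim39 and Trim11, -0.15 for Trim7 and 0.16 for Trim26, while those of Trim6 (0.87, SE 0.286), Trim25 (0.42, SE 0.249) and Trim34a (-0.78, SE 0.384) became larger. The spike-in signal did not overlap between the genotypes. This fit therefore separates signal and genotype poorly, and its shifts cannot be read gene by gene.

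**Figure D1:**
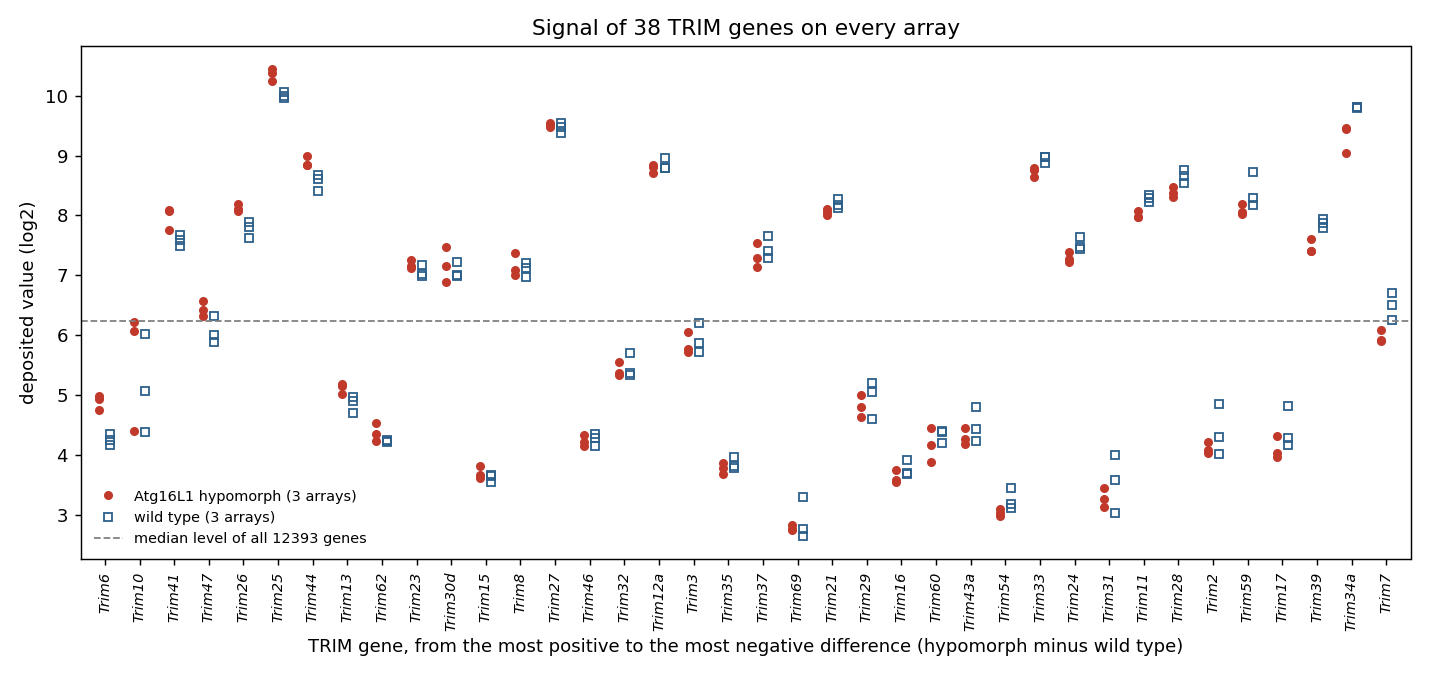
Deposited log2 value of each of 38 TRIM genes (vertical axis) on the 3 Atg16L1 hypomorph arrays (filled circles, left) and the 3 wild-type arrays (open squares, right), ordered along the horizontal axis by the difference between the group means. The dashed line is the median over all genes. The groups are close for most genes, lie apart for Trim6 at the left and for Trim39, Trim34a and Trim7 at the right, and spread widely within both groups for Trim10.

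**Figure D2:**
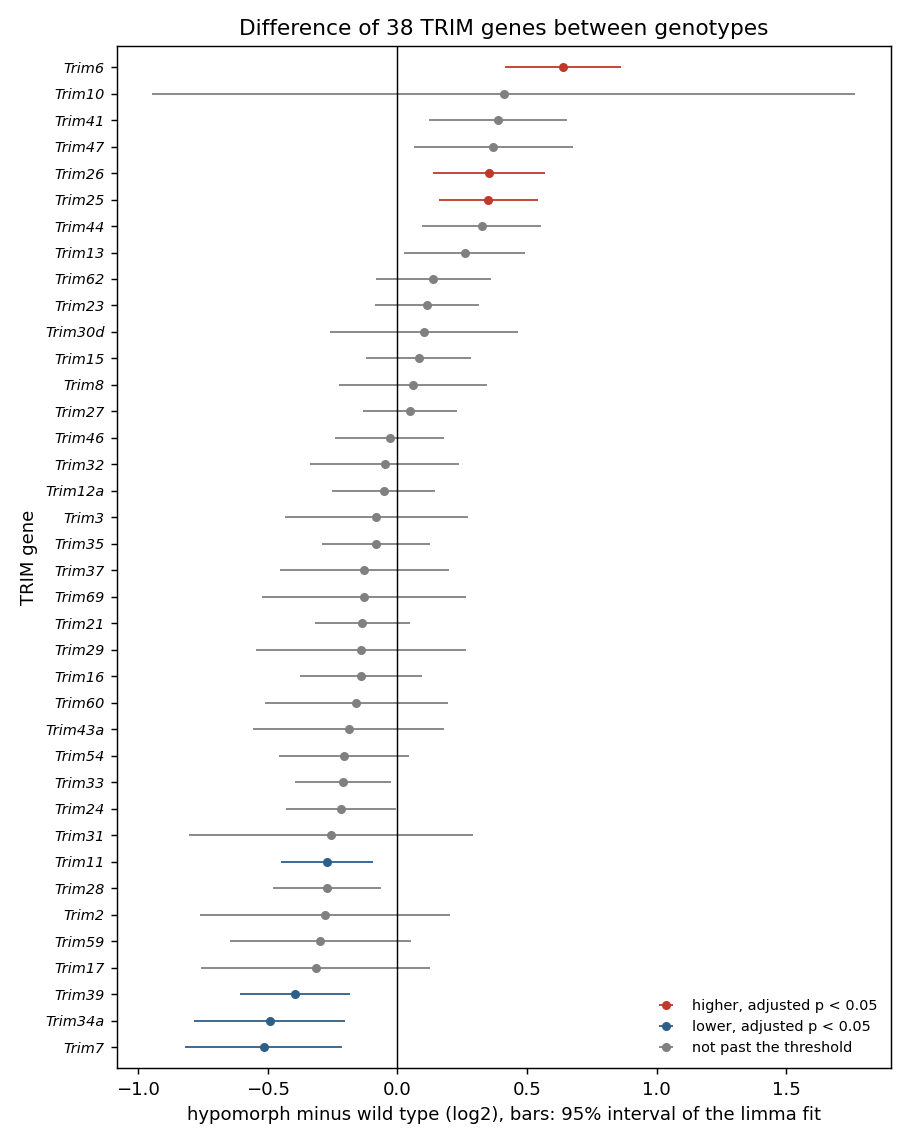
Log2 difference of each TRIM gene, hypomorph minus wild type (horizontal axis), with the 95% interval of the limma fit as bars. Red marks the 3 members that rose, blue the 4 that fell and grey the 31 that did not pass; the differences run from -0.52 for Trim7 to 0.64 for Trim6.

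All 7 members that passed belong to the PRY-SPRY class, of which 21 were measured, and none of the 17 members of the other classes passed with limma (5 of them had an unadjusted p under 0.05). The class passed at 33.3%, where 18.2% of all genes did, and whether the classes differ was not tested. Members of other classes passed in some other fits, Trim28, Trim33 and Trim44 among genes above the median signal and Trim28 and Trim44 with a trended and robust variance model. Trim6, whose human counterpart makes ubiquitin chains that activate a kinase of the interferon response, was at 4.99, 4.74 and 4.93 in the hypomorph, against 4.34, 4.16 and 4.25 in wild type. Every hypomorph array was above every wild-type array, and the difference was 0.64 (1.56-fold, SE 0.0949, adjusted p = 0.00683). This call was kept without any 1 array, with adjusted p-values up to 0.0418. Its signal was low, with 33% of all genes at or below it, and no detection call was at hand to set it against background.

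Trim25 encodes the ligase known for ubiquitinating the RNA sensor RIG-I, and it is itself induced by interferon. It was at 10.38, 10.25 and 10.44 in the hypomorph and at 9.99, 10.06 and 9.97 in wild type. The groups did not overlap, and the gene rose 1.27-fold (log2 difference 0.35, SE 0.0804, adjusted p = 0.0279). Tested one by one, its other 2 probe sets were also higher, by 0.54 (adjusted p = 0.00871) and by 0.31 (adjusted p = 0.219). The name of the probe set used ends in _s_at, by which Affymetrix marks sets that can match several transcripts. The call was lost without wild-type replicate 3 (adjusted p = 0.0683), without hypomorph replicate 1, 2 or 3 (0.0917, 0.0553 and 0.113) and after quantile normalization (0.0737).

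Trim26, a ligase gene of the MHC class I region, was at 8.20, 8.08 and 8.10 in the hypomorph and at 7.63, 7.88 and 7.81 in wild type, without overlap (log2 difference 0.35, SE 0.0912, adjusted p = 0.0397). Its call was lost without any 1 array other than wild-type replicate 2 (adjusted p from 0.0576 to 0.127). A second, dimmer probe set differed by 0.09 and did not pass (adjusted p = 0.568).

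Among the members that fell, Trim39, another gene of the MHC class I region, whose human product restrains the cell-cycle ligase APC/C, was at 7.61, 7.41 and 7.40 in the hypomorph and at 7.94, 7.88 and 7.78 in wild type. The groups did not overlap (log2 difference -0.39, SE 0.0893, adjusted p = 0.0265). The call was lost without wild-type replicate 1 (adjusted p = 0.0513) and without hypomorph replicate 2 or 3 (0.105 and 0.106).

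Trim34a, an interferon-induced relative of primate TRIM34 and TRIM5, was at 9.04, 9.47 and 9.44 in the hypomorph, against 9.80, 9.81 and 9.81 in wild type. Wild-type values lay close together, whereas hypomorph replicate 1 was well below the other hypomorph arrays, and the difference was -0.49 (1.41-fold lower, SE 0.123, adjusted p = 0.0357). Leaving out any 1 array ended this call, with adjusted p-values from 0.0565 to 0.082. A second, dimmer probe set differed by -0.05 (adjusted p = 0.724), and with both averaged the difference was -0.27. Trim34b is a close copy of it, and the signal may hold transcripts of both.

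Trim7 encodes a ligase first found as a partner of glycogenin, the primer of glycogen synthesis. It was at 5.90, 5.92 and 6.09 in the hypomorph and at 6.50, 6.71 and 6.25 in wild type, without overlap (log2 difference -0.52, 1.43-fold lower, SE 0.128, adjusted p = 0.0349). The call was kept without wild-type replicate 3 and lost without any other 1 array (adjusted p from 0.0537 to 0.119). A second probe set, dimmer, differed by 0.05 (adjusted p = 0.852).

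Trim11, known to direct the degradation of the peptide humanin, was at 8.08, 7.97 and 7.97 in the hypomorph and at 8.34, 8.29 and 8.22 in wild type. The groups did not overlap, but the gene was just inside the threshold (log2 difference -0.27, SE 0.0751, adjusted p = 0.0487) and was lost without any 1 array (adjusted p from 0.0663 to 0.165) and with arrays centred on their medians (0.0509).

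Next beyond the threshold were Trim41 and Trim44. Trim41, a ligase that binds protein kinase C, was at 8.07, 7.76 and 8.09 in the hypomorph and at 7.59, 7.68 and 7.48 in wild type (log2 difference 0.39, SE 0.112, adjusted p = 0.0547), and it passed without hypomorph replicate 2 (0.045). Trim44 lacks the RING domain and carries a zinc finger of the kind found in deubiquitinases. It was at 9.001, 8.84 and 8.84 in the hypomorph and at 8.42, 8.67 and 8.62 in wild type (log2 difference 0.32, SE 0.0968, adjusted p = 0.0596), and it passed with arrays centred on their medians (0.0461). Its second, dimmer probe set differed by -0.04 (adjusted p = 0.851), and with both averaged the difference was 0.14 (adjusted p = 0.381). On the probe sets used, the groups overlapped in neither gene. Trim47 was at 6.57, 6.31 and 6.42 in the hypomorph and at 6.00, 6.31 and 5.89 in wild type (log2 difference 0.37, adjusted p = 0.0924) and passed without wild-type replicate 2 (0.0262).

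The 3 measured PHD-bromodomain genes encode nuclear co-regulators, and none passed. Each was lower on all 3 hypomorph arrays than on any wild-type array, as were 22.5% of all genes. Trim28, the corepressor KAP1 that KRAB zinc finger proteins recruit to silence retroelements, was at 8.47, 8.37 and 8.30 in the hypomorph and at 8.75, 8.66 and 8.55 in wild type (log2 difference -0.27, adjusted p = 0.0736), and it passed in both of the fits just named for it. Trim33, which binds SMAD proteins of TGF-beta signalling, was at 8.79, 8.65 and 8.76 in the hypomorph and at 8.87, 8.98 and 8.99 in wild type (-0.21, adjusted p = 0.11, with 0.0444 after quantile normalization and 0.0473 among genes above the median signal). Trim24, a co-regulator of nuclear receptors, was at 7.28, 7.40 and 7.22 in the hypomorph and at 7.47, 7.63 and 7.44 in wild type (-0.22, adjusted p = 0.136). Of 10 measured genes that work with KAP1, the HP1 gene Cbx3 and the HUSH complex gene Mphosph8 fell, both by 0.38. The deacetylase gene Hdac2 rose by 0.36. That is 30% of the list past the threshold, where 18.2% of all genes passed, 9.76% higher and 8.47% lower. The median of this list was -0.19, and all 3 calls were lost without any 1 hypomorph array, that of Hdac2 also without wild-type replicate 1 or 2.

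Other members known from antiviral and innate signalling did not pass. Trim21, the cytosolic receptor for the constant part of antibodies, was at 8.00, 8.06 and 8.11 in the hypomorph and at 8.28, 8.13 and 8.18 in wild type, a difference of -0.14 with a 95% interval from -0.32 to 0.05. Its second, dimmer probe set differed by -0.25 (interval -0.42 to -0.08, adjusted p = 0.0542), and the groups overlapped on neither. Trim12a, a mouse relative of TRIM5, was at 8.71, 8.85 and 8.81 in the hypomorph and at 8.96, 8.79 and 8.79 in wild type, a difference of -0.05 that changed sign without wild-type replicate 1. Trim27, which acts with the retromer-linked WASH complex, was at 9.49, 9.54 and 9.52 in the hypomorph and at 9.48, 9.37 and 9.55 in wild type. Its difference was 0.05, with an interval from -0.13 to 0.23, and -0.02 after quantile normalization. Trim23, whose product carries an ARF GTPase domain, differed by 0.11 (interval -0.09 to 0.31), and Trim8, a partner of SOCS1, by 0.06 (interval -0.23 to 0.35). For the probe sets used for these 5 genes the intervals include no change and exclude 1.5-fold in either direction.

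The membrane-anchored members went apart without passing. Trim13, an endoplasmic reticulum protein with a role in ER-phagy, was at 5.16, 5.18 and 5.02 in the hypomorph and at 4.69, 4.90 and 4.97 in wild type (log2 difference 0.26, adjusted p = 0.113). Trim59 was at 8.07, 8.20 and 8.02 in the hypomorph and at 8.28, 8.17 and 8.72 in wild type, where replicate 3 stood above the others (log2 difference -0.30, adjusted p = 0.208). Of the NHL-repeat genes, Trim2, Trim3 and Trim32 differed by -0.28, -0.08 and -0.05 with overlapping groups, and Trim37, the MATH-domain ligase of centrioles and peroxisomes, by -0.13. Trim16, which binds galectins at damaged lysosomes, differed by -0.14 and Trim29 by -0.14, also with overlap. Trim46 and the muscle gene Trim54 differed by -0.03 and -0.21, both at low signal. The remaining members were dim PRY-SPRY genes (Trim15, Trim17, Trim35, Trim43a, Trim60, Trim62 and Trim69, from -0.32 to 0.14), Trim31 (-0.26) and the pair described next.

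Trim10, a gene of terminal erythroid differentiation, spread more than any other member. It was at 6.08, 6.22 and 4.40 in the hypomorph and at 6.01, 4.38 and 5.06 in wild type (log2 difference 0.41, interval -0.95 to 1.77, adjusted p = 0.654). The mean of 6 erythroid marker genes was 6.10, 5.87 and 4.96 on the same hypomorph arrays and 5.68, 4.75 and 5.15 on the wild-type arrays. In both measures hypomorph replicates 1 and 2 and wild-type replicate 1 were the 3 highest arrays and wild-type replicate 2 the lowest. Trim30d, of the Trim30 gene cluster, was at 6.89, 7.16 and 7.47 in the hypomorph and at 7.22, 6.995 and 6.999 in wild type. The mean of 26 interferon-stimulated genes was 7.38, 7.76 and 7.85 in the hypomorph and 7.48, 7.39 and 7.31 in wild type, so that in both measures hypomorph replicate 1 was the lowest and replicate 3 the highest of its group.

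Several TRIM genes lie next to each other. Of 4 pairs with 0 other protein-coding genes between them, 2 had differences of opposite sign and 2 of the same sign, and in 1 pair both members passed. In the RefSeq gene order on chromosome 7, Trim6 and Trim34a have no other protein-coding gene between them, and Trim6 rose by 0.64 while Trim34a fell by 0.49. Trim12a and Trim30d, farther along the same cluster, differed by -0.05 and 0.10, and neither passed. On chromosome 11, Trim41 and Trim7 are adjacent, with differences of 0.39 (not past the threshold) and -0.52. Trim17 and Trim11, also on chromosome 11 with 2 genes between them, differed by -0.32 (not past the threshold) and -0.27. On chromosome 17, Trim39 fell by 0.39 and Trim26, with 9 protein-coding genes between them, rose by 0.35. Trim15, adjacent to Trim26, and Trim10, adjacent to Trim15, differed by 0.08 and 0.41, and Trim31, 1 gene beyond Trim10, by -0.26, and none of these 3 passed with limma.

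**Figure D3:**
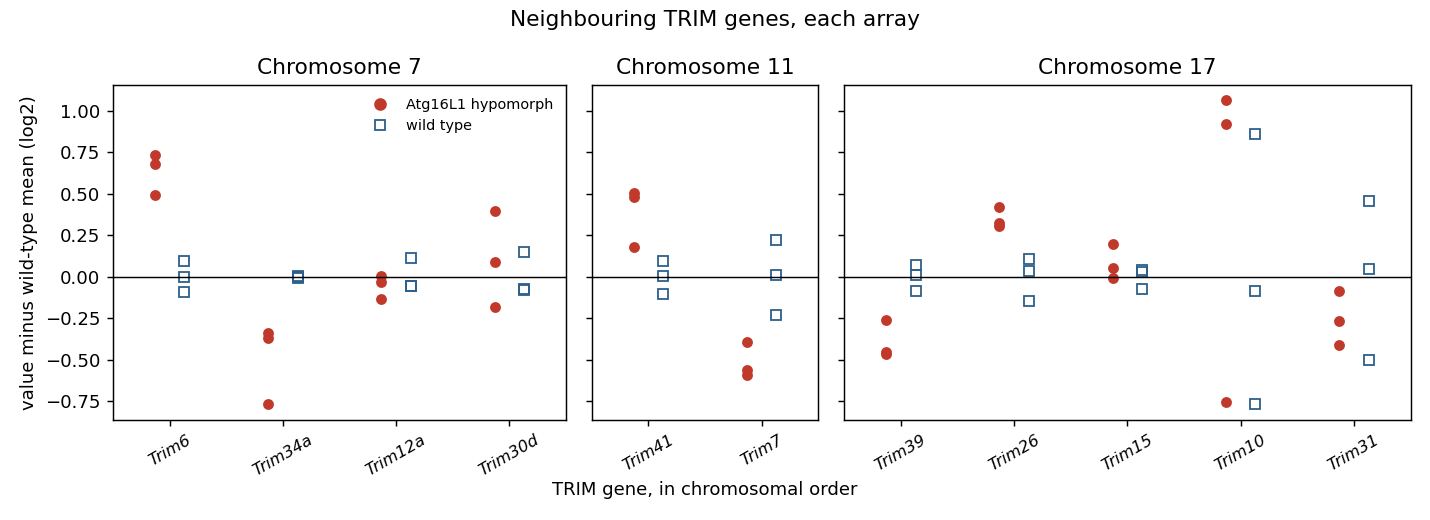
Log2 value minus the wild-type mean of the gene (vertical axis) for neighbouring TRIM genes in chromosomal order (horizontal axis), with each hypomorph array as a filled circle and each wild-type array as an open square. Hypomorph arrays lie above wild type for Trim6 and below it for the adjacent Trim34a, above it for Trim41 and below it for the adjacent Trim7, and below it for Trim39 and above it for Trim26.

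Because several members are interferon-induced, promoter sequences (RefSeq, GRCm38.p6, from 250 bases before to 50 after each start) were searched for the interferon response motif, GAAA and GAAA with NN between them, on either strand. Of 30 members with an entry, 6 held a match, or 20%, against 3.99% of all 27025 genes of the table. The share was 80% of the 5 members on the interferon list and 8% of the 25 others. Of 19 interferon-stimulated genes with an entry, 63.2% held it. The matching members were Trim12a, Trim21, Trim30d and Trim34a, which are on the interferon list, and Trim26 and Trim2. Some genes have several starts, each with its own sequence, and a gene was counted if any of them held a match. For Trim2 the sequences of its other starts held none. The windows of 30 bases that hold these matches are shown because they include a member that rose, a member that fell and 4 that did not pass, each 5′ to 3′ on the strand of the gene with the matched letters in capitals. TTTC and TTTC with NN between them is the same motif read on the opposite strand, and in Trim21 and Trim26 a pair of matches overlap.
Trim26: cttccgaTTTCACTTTCCTTTTCtcgggcc
Trim34a: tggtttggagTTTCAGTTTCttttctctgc
Trim12a: agagttgtggTTTCTGTTTCatttccagag
Trim21: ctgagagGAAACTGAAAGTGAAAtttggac
Trim30d: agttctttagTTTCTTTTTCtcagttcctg
Trim2: tcagctttggTTTCCTTTTCtctaagacag
These windows lie at chr17:36836979-36837008 (+ strand) for Trim26, chr7:104244457-104244486 (+) for Trim34a, chr7:104315466-104315495 (-) for Trim12a, chr7:102565447-102565476 (-) for Trim21, chr7:104507871-104507900 (-) for Trim30d and chr3:84212791-84212820 (-) for Trim2. In Trim34a and Trim12a the match begins at base 11 after the start, in Trim21 at base 14, and in Trim26 160 bases before it. Trim26 rose and Trim34a fell, with a match in both windows that differs in letters, number and position, and Trim6 and Trim25, which rose, have no match there. Trim7 and Trim39, which fell, have none either, and Trim11 had no entry. A match describes letters and does not show that a factor bound.

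For Trim6, the member with the largest difference, the 250 bases before the start (chr7:104218545-104218794, + strand) are shown whole, in lower case since no match was found.
Trim6: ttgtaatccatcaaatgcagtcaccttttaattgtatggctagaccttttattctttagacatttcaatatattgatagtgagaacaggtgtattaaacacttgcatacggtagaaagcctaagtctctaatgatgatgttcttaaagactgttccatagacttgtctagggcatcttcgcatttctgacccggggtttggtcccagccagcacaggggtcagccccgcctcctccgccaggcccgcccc

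Of the 5 measured genes on the interferon-induced TRIM list, Trim25 rose and Trim34a fell. Of 26 other interferon-stimulated genes 4 rose and 0 fell with limma (1 lower at an unadjusted p under 0.05), with a median of 0.17. That is 15.4% of the list, all of it higher, where 18.2% of all genes passed, 9.76% higher and 8.47% lower. Without 1 array the number that rose ranged from 1 to 6 and the number that fell from 0 to 1, the 1 being without wild-type replicate 3. The RNA and DNA sensing genes on which TRIM25 and its relatives act had 2 of 17 members higher and 1 lower, or 17.6%. The lists share some genes, and Ifih1 is counted as higher in both. Mavs, the mitochondrial adaptor below RIG-I and MDA5, was at 8.02, 7.81 and 7.90 in the hypomorph, against 6.98, 7.21 and 7.38 in wild type (log2 difference 0.72, SE 0.118, adjusted p = 0.00953). Ifih1, which encodes MDA5, was at 9.38, 9.39 and 9.59 in the hypomorph, against 8.72, 8.65 and 8.68 in wild type (0.77, adjusted p = 0.00257). Irf3, the transcription factor at the end of this pathway, was at 8.75, 8.69 and 8.72 in the hypomorph, against 9.29, 9.16 and 9.02 in wild type (-0.44, adjusted p = 0.018). The calls of Mavs and Ifih1 were kept without any 1 array, and that of Irf3 was lost without any 1 hypomorph array (adjusted p up to 0.0771).

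TRIM ligases take ubiquitin, or the ubiquitin-like ISG15, from E2 enzymes. Of 30 measured E1 and E2 genes 4 rose and 1 fell, 16.7% of the list. Ube2l6, the E2 enzyme for ISG15, with which TRIM25 can work, was at 5.36, 5.58 and 5.45 in the hypomorph, against 4.91, 4.67 and 4.77 in wild type (log2 difference 0.68, SE 0.097, adjusted p = 0.00603). Uba7, the E1 enzyme of ISG15, was at 8.19, 8.08 and 8.21 in the hypomorph, against 8.92, 8.63 and 8.52 in wild type (-0.53, adjusted p = 0.024). Ube2e3 rose by 0.38, Ube2n, which builds signalling chains, by 0.33 and Ube2w by 0.29. Apart from Ube2l6, these calls were lost without any 1 hypomorph array. That of Ube2n was also lost without wild-type replicate 2, and that of Ube2w without wild-type replicate 1 or 3. Among 50 numbered Rnf genes, most of which also encode RING ligases, 7 rose and 3 fell (20%), led by Rnf141 (0.88) and Rnf103 (0.73). Without 1 array 2 to 8 Rnf genes rose and 0 to 4 fell.

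**Figure D4:**
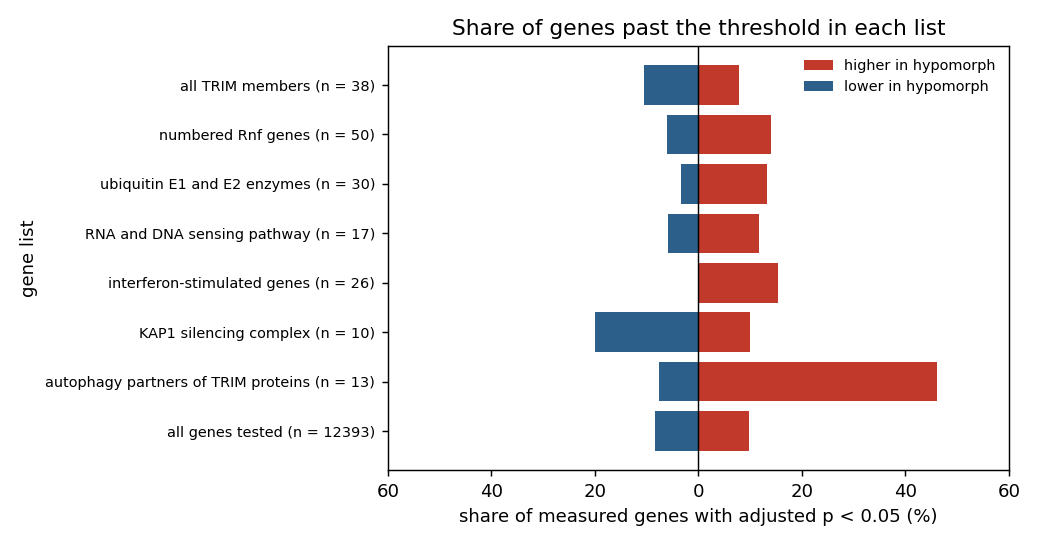
Share of the measured genes of each list that passed an adjusted p of 0.05 (horizontal axis, in percent), higher in the hypomorph to the right and lower to the left, with the number of genes measured beside each list. TRIM genes (18.4% in all) lie close to all genes tested (18.2%), and 53.8% of the autophagy partners passed. That share counts Atg16l1, the gene by which the groups were defined.

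TRIM proteins under other symbols were counted apart. Of 5 measured, 3 fell and 0 rose with limma (0 higher at an unadjusted p under 0.05). That is 60% of this short list, where 18.2% of all genes passed and 8.47% were lower. Mefv, which encodes the inflammasome sensor pyrin, was at 8.25, 7.75 and 7.93 in the hypomorph, against 9.09, 8.58 and 8.48 in wild type (log2 difference -0.75, 1.68-fold lower, SE 0.192, adjusted p = 0.0389). The microtubule-binding ligase gene Mid2 fell by 0.46 and the muscle gene Cmya5 by 0.37, both from dim probe sets with wild-type means of 3.11 and 3.78. Pml, the organiser of nuclear bodies, differed by -0.04 (adjusted p = 0.803) and Mid1 by -0.02. All 3 calls were lost without any 1 hypomorph array (adjusted p up to 0.13), Mefv also without wild-type replicate 1 and Cmya5 also without wild-type replicate 2 or 3.

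Of 13 measured autophagy proteins that TRIM ligases are known to bind or work beside, 6 rose and 1, Atg16l1, fell. That is 53.8%, where 18.2% of all genes passed, and it counts Atg16l1, by which the groups were defined. Sqstm1, the receptor p62, was at 9.23, 9.14 and 9.16 in the hypomorph, against 8.25, 8.58 and 8.64 in wild type (log2 difference 0.68, adjusted p = 0.0104). Gabarapl1 rose by 1.14, Map1lc3a by 0.61 and the galectin gene Lgals3, whose product Trim16 binds in human cells, by 0.52. Trim16 itself was at 3.585, 3.75 and 3.54 in the hypomorph and at 3.92, 3.70 and 3.68 in wild type. Without 1 array 3 to 5 of these genes rose. The macrophage markers were higher on the same arrays (median difference 1.64), and their part in these values was not tested.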

How the data were processed

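RNA of CD11c+ spleen cells was measured on 6 Affymetrix MOE430A arrays, 3 per genotype. The authors deposited 1 value per probe set and array, between 1.96 and 14.33. The authors deposited these values with no stated scale, and they were taken as log2 from their range; Affymetrix Power Tools is named, per the submitters' processing notes. Settings and normalization: not given in the sources used here. Array medians lay between 5.65 and 5.71.

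Of 22625 probe sets other than controls, 20379 name 1 gene in GEO's platform annotation, 691 several and 1555 none. They gave 12393 genes, each represented by its probe set of highest mean. Values were used as deposited, with no filter on low signal. Differences are hypomorph minus wild type from limma 3.58.1 (lmFit and eBayes, two-sided, R 4.3.3), with Benjamini-Hochberg adjustment over all 12393 genes and a threshold of 0.05. SE is the moderated standard error. The fit was tested on simulated data. The members and gene lists were chosen with earlier results of these data known, so their counts are not independent evidence. The named genes were all members past the threshold, the 6 brightest, the 4 largest differences among those that did not pass, up to 4 genes per direction in the other lists, and other members within their class. The erythroid and interferon values beside Trim10 and Trim30d were set there after their values were seen. Alternatives covered probe sets, filters, normalization, the variance model, a replicate block, a spike-in covariate and each array left out. With arrays, precision is limited by their number. Wild-type replicate 1 differs from the other arrays by a number in its title, of unstated meaning, and wild-type replicate 3 by its array name, so both arrays were also left out together, a choice made after seeing the data. Protein sequences were not analysed here.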

Additional observations from a re-analysis of the deposited data

How the results depend on the processing

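Of 38 TRIM genes, 3 rose and 4 fell. With a trended and robust variance model 5 rose. With the replicate number as a block 1 rose (Trim6) and 0 fell, so 1 passed (limma, 6 higher and 6 lower at an unadjusted p under 0.05). A required change of 1.5-fold also left 1 higher, 0 lower and 1 in all. The 7 members lower at an unadjusted p under 0.05 (limma) are counted without that requirement. No lower member met it, the largest fall being 1.43-fold for Trim7. With the spike-in covariate 0 rose, 0 fell and 0 passed (limma, 1 higher and 1 lower unadjusted). Leaving out each array gave 1 to 4 higher, 0 to 2 lower and 1 to 5 in all, with 4 to 9 lower unadjusted. Of all genes, 5.99% to 18.3% passed in those fits. The median difference of -0.11 was -0.053 among the 19 members above the median signal, a filter that leaves out Trim6, Trim7 and Trim10, -0.055 after quantile normalization, 0.13 with the spike-in covariate, and -0.103 to -0.029 with 1 array left out. With only wild-type replicate 2 kept beside the hypomorph arrays, a fit chosen after seeing the data, the members' median was -0.0015. That over all genes was -0.0035. The sign of the difference changed for 13 of 38 members with the covariate, for 9 in the fit with wild-type replicate 2 alone, for 3 after quantile normalization and for 0 to 2 with 1 array left out. Among the 14 members followed singly, Trim12a changed to 0.12 with the covariate, to 0.0016 with wild-type replicate 2 alone and to 0.0019 without wild-type replicate 1 (-0.083 without hypomorph replicate 2, the other end), and Trim27 to -0.023 after quantile normalization and to -0.115 with the covariate. With probe sets of a gene averaged, the calls of Trim7 (adjusted p = 0.101) and Trim26 (0.136) were lost. The cause of these shifts was not tested. Fits that leave out arrays also have fewer samples. Arrays with the same number in both groups had deviations correlated by 0.153, 0.011 and 0.106, and with other numbers by -0.173 to 0.138. The labels do not say whether arrays of the same number were paired, and these values cannot decide it. Under the block 1231 genes passed, in place of 2260, and hypomorph replicate 2 correlated best with wild-type replicate 3. The number of arrays limits small differences, and dim members had no detection call.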
